A study of Mus musculus with 4 samples.

Results

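Collagen is a matrix protein that cells bind through integrins, and PMB is a phospholipid polymer whose phosphorylcholine groups resemble the outer face of a cell membrane and resist protein and cell adhesion. A porous implant under the skin is normally met by neutrophils and macrophages first, then by lymphocytes, new vessels and fibroblasts, while the muscle, fat, nerve and epidermis next to the wound are damaged and repaired. The host response to both coatings was compared here directly, gene by gene, on porous polyethylene scaffolds, which the series title calls polystyrene.
The comparison used 4 of the 4 arrays of the series. Every scaffold had been placed beneath the dorsal skin of male C57BL/6 mice aged 8 weeks and was taken out after 7 days. The groups were a scaffold coated with type I collagen and a scaffold coated with PMB, named MPC in the sample titles, and the non-coated scaffold was the reference of both. Tissue at the scaffold was cut by laser from cryosections, and 825 ng of amplified RNA of the coated and of the non-coated scaffold were hybridized together on each two-colour array. The coated sample was in Cy5 on replicate 1 and in Cy3 on replicate 2, and the sign of replicate 2 was turned so that every value is log2 of coated over non-coated. Subtracting the PMB array from the collagen array of the same dye orientation removes the shared non-coated extract, and the mean of both subtractions is the difference used below, so that 1 is a 2-fold and 2 a 4-fold higher level with collagen.
There was 1 mouse for each kind of scaffold, and the sources used here do not say whether the scaffolds were in separate mice. Both arrays of a coating hold the same extracts and count as 1 sample, so no test between the coatings exists and no p-value is given. The ± after a difference is the SD of the 2 subtractions, a technical error that holds nothing of the variation between animals or between cut areas. The cut areas held mixed cell types, and fewer cells of a type cannot be told apart from less RNA per cell.
A difference could be formed for 22380 of 43377 probes and for 11842 of 19087 named genes. By array, between 52.3% and 60.5% of the probes had a value. The 2 subtractions correlated at 0.89 across probes, a description over probes of the same 4 arrays, and the half-difference between them had an SD of 0.141 against 0.571 for their mean. A gene was counted as higher or lower with collagen when its mean difference reached 2-fold and both subtractions had its sign. By this rule 325 genes (2.74%) were higher with collagen than with PMB and 435 genes (3.67%) were lower, together 6.42% of the genes. Per probe the shares were 3.03% higher and 3.59% lower, together 6.63%. The count of a gene list below is read against these background shares. The values of the coatings did not overlap in 325 of the 325 higher and 434 of the 435 lower genes. Non-overlap in a single gene past the rule therefore adds little to the rule. The median difference over all genes was 0.0012, and the median SD of the 760 genes past the rule was 0.128.

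**Figure D1:**
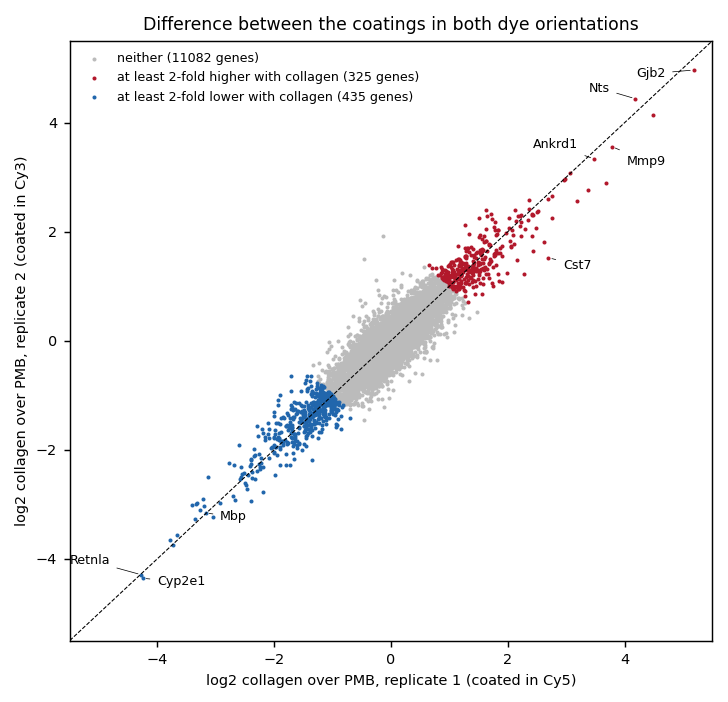
Each point is 1 of 11842 genes, with log2 of collagen over PMB from the arrays with the coated sample in Cy5 on the x axis and from the arrays with it in Cy3 on the y axis. The 325 genes higher and the 435 genes lower with collagen lie along the dashed line of equal values, out to Gjb2 at 5.07 and Cyp2e1 at -4.30, and Cst7 had the largest disagreement among these genes.

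Among the genes highest with collagen relative to PMB were an epithelial gap junction gene, a neuropeptide, a neutrophil protease and a muscle stress gene. Gjb2, the connexin 26 of epithelial gap junctions, was at 4.62 and 4.58 on the collagen arrays against -0.56 and -0.39 on the PMB arrays, a difference of 5.07 ± 0.15 (33.6-fold). Nts, which encodes the neuropeptide neurotensin, was at 3.65 and 3.79 with collagen against -0.53 and -0.65 with PMB. Mmp9, the gelatinase stored in neutrophil granules and made in osteoclasts, was at 2.90 and 2.84 against -0.88 and -0.72. In these 3 genes the collagen scaffold lay above and the PMB scaffold below the non-coated scaffold, and the coatings did not overlap.
Ankrd1, a titin-associated gene that rises in stressed and injured muscle, reached its difference of 3.40 ± 0.10 in another way. Its collagen values of 0.32 and 0.28 were near the non-coated scaffold and its PMB values of -3.16 and -3.05 far below it. Further genes of this end were Urah at 3.29 ± 0.56, the Mas-related receptor Mrgpra2b at 2.39 ± 0.028, the leucine-rich repeat gene Lrrn3 at 2.36 ± 0.069 and the IL-13 decoy receptor Il13ra2 at 2.23 ± 0.089. Others were the lymphocyte receptor Gpr18 at 2.50 ± 0.36, the ectonucleotidase Entpd3 at 2.43 ± 0.094, the myeloid fatty acid receptor Gpr84 at 2.27 ± 0.092, the thyroid hormone-inactivating deiodinase Dio3 at 2.26 ± 0.054 and Spic at 2.20 ± 0.026, a transcription factor of iron-handling macrophages. Cd163l1, a scavenger receptor found on gamma-delta T cells in several species, was at 2.47 ± 0.16 and the gamma chain segment Trgv2 of the T cell receptor at 2.17 ± 0.34.
The opposite end held enzymes, matrix and signalling genes and a macrophage product. Cyp2e1, an ethanol- and drug-oxidizing cytochrome of liver and fat, was at -2.74 and -2.85 with collagen against 1.51 and 1.51 with PMB, a difference of -4.30 ± 0.075. Retnla, a secreted product of alternatively activated macrophages and of fat tissue, was at -2.44 and -2.75 against 1.83 and 1.55. Reln, the glycoprotein reelin of neurons and lymphatic vessels, was at -2.88 and -2.54 against 0.90 and 1.12, and its 8 probes ran from -4.01 to -3.20. Igfbp5, an insulin-like growth factor binding protein of mesenchymal cells and muscle, was at -2.78 and -2.76 against 0.89 and 0.79. All 4 genes were below the non-coated scaffold with collagen and above it with PMB, with no overlap of the coatings. Further genes of this end included the developmental regulators Zic1 at -2.51 ± 0.37 and Prdm8 at -3.14 ± 0.14, the matrix gene Vit at -3.11 ± 0.12, the paternally expressed Nnat at -3.14 ± 0.25, the ferritin receptor Scara5 at -2.49 ± 0.29, the neutral sphingomyelinase Smpd3 at -2.59 ± 0.18 and the lipid droplet hydrolase Pnpla3 at -2.67 ± 0.38. Plekhb1, the ABC transporter Abca8a and Smtnl2 were also at this end, at -2.95 ± 0.025, -2.47 ± 0.073 and -2.55 ± 0.069. In all, 42 genes were at least 4-fold higher and 60 at least 4-fold lower with collagen.

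**Figure D2:**
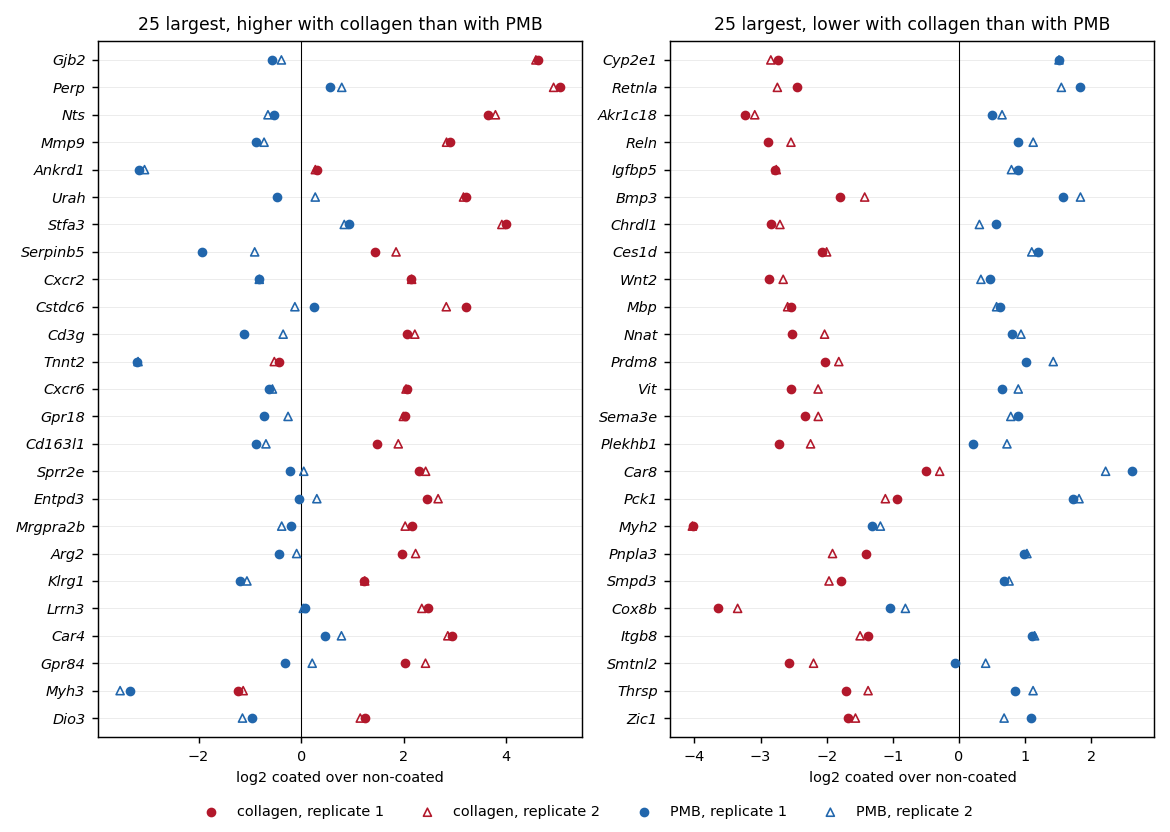
Log2 ratios of coated over non-coated on the 4 arrays (x axis) for the 25 genes with the largest positive and the 25 with the largest negative difference between collagen and PMB; red is collagen, blue is PMB, filled circles are replicate 1 and open triangles replicate 2. The red and the blue symbols do not overlap in any gene shown, as in nearly all genes past the rule. Ankrd1, Tnnt2 and Myh3 differ from the other genes at the left in that PMB is about 3 or more below the non-coated scaffold.

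To ask which tissue programmes differed, 1146 measured genes of 70 lists of cell types, pathways and families were counted by the same rule. The lists held 124 of the 325 higher and 144 of the 435 lower genes. A difference could be formed for 20 of 22 pan-macrophage, 26 of 27 blood endothelial and 18 of 20 fibroblast genes, against 2 of 11 B cell and 1 of 20 hair follicle genes, and the macrophage markers Cd68 and Csf1r had none. The lists with the highest medians were stefins and epithelial defence genes, T cell markers, neutrophil markers, NK and cytotoxic genes, epidermis genes and IL-1 family genes, with medians between 1.02 and 1.93. Among lists with at least 4 measured genes, Schwann cell and myelin genes and type I interferon response genes had the lowest medians, at -1.05 and -1.03, and mature skeletal muscle, lymphatic, adipocyte and resident macrophage genes followed between -0.95 and -0.91. The lymphatic median rests on 4 genes, 2 below 0 and 2 above 0, and lies near none of them.

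**Figure D3:**
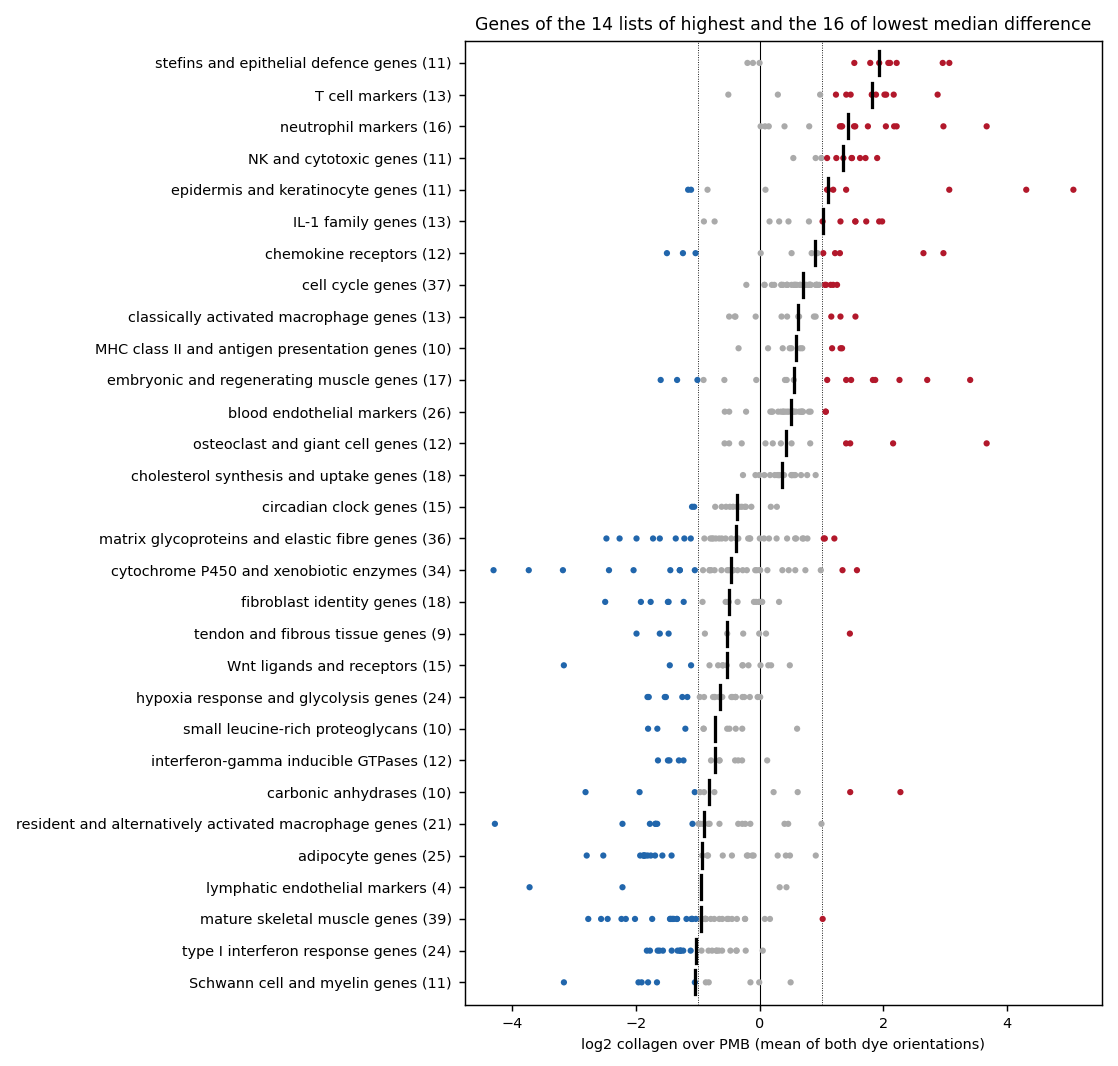
Each point is a measured gene of a list, placed at its log2 difference of collagen over PMB, in red where at least 2-fold higher, in blue where at least 2-fold lower and in grey otherwise; black bars are list medians, dotted lines mark 2-fold and the number of measured genes is in brackets. The 14 lists of highest and the 16 of lowest median are drawn out of the lists with at least 4 measured genes, from stefins and epithelial defence genes at 1.93 to Schwann cell and myelin genes at -1.05.

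Genes of neutrophils were higher with collagen than with PMB, in 11 of 16 measured markers, and none was lower. Cxcr2, the receptor that draws neutrophils toward CXC chemokines, was at 2.15 and 2.15 with collagen against -0.82 and -0.82 with PMB. Fpr2, a receptor for formylated peptides, was at 1.72 and 1.73 against -0.30 and -0.34. Retnlg, a resistin-like product of neutrophils and their precursors, was at 0.97 and 0.80 against -1.33 and -1.25. The coatings did not overlap in these 3 genes, and PMB was below the non-coated scaffold in each. Csf3r, the receptor for the growth factor G-CSF, differed by 1.30 ± 0.33. All 16 markers had a difference above 0, with a median of 1.43, but the granule genes Mpo (0.80), Ltf (0.15) and Prtn3 (0.09) and the integrin Itgam (0.01) did not reach 2-fold. S100a8 and S100a9, the subunits of the antimicrobial protein calprotectin, were the markers that differed most between the collagen arrays, at 2.43 and 1.55 and at 2.16 and 1.32.
Of the chemokines that bind Cxcr2, Cxcl5 was at 1.26 and 1.21 with collagen against -0.52 and -0.39 with PMB, a difference of 1.69 ± 0.13, and Cxcl2 differed by 1.53. Cxcl3, which binds the same receptor, did not pass the rule, at -0.29. Over all chemokines 7 of 29 were higher and 2 lower, and the median of -0.16 was close to that of all genes. The chemokine median had no settled sign, at -0.28 on the arrays of replicate 1 and 0.10 on those of replicate 2.
Markers of T cells were higher in 10 of 13 and lower in none, with a median difference of 1.81. Cd3g, a chain of the T cell receptor complex, was at 2.07 and 2.22 with collagen against -1.12 and -0.35 with PMB. Cd5, an inhibitory coreceptor of T cells, was at 1.69 and 1.82 against -0.44 and -0.38. Cd247, the zeta chain of the receptor complex, was at 1.57 and 1.71 against -0.14 and -0.62. These 3 genes did not overlap between the coatings. The receptor kinase Zap70 (1.82), its adaptor Lat (1.47), the costimulators Icos (2.04) and Cd27 (1.88) and the lineage factor Bcl11b (1.23) were also at least 2-fold higher. Cd2 at 0.98, Cd28 at 0.29 and Thy1 at -0.51 were not, and Thy1 is shared with fibroblasts and neurons.
NK and cytotoxic genes were higher in 8 of 11 and lower in none, with a median of 1.35. Gzma, a granule protease of killer cells, was at 0.36 and 0.09 with collagen against -1.41 and -1.94 with PMB. Klrc1, a receptor for nonclassical MHC class I, was at 1.18 and 1.18 against -0.38 and -0.68. The activating receptor Ncr1 (1.48), Klrb1c (1.35) and Nkg7 (1.49) also passed 2-fold, while Gzmb at 0.99, Ccl5 at 0.90 and Klrk1 at 0.54 did not. In Gzma the collagen scaffold was near the non-coated one and PMB was the coating that stood apart. Of 10 measured genes of the Klra family, the Ly49 receptors of mouse NK cells, 8 were at least 2-fold higher, from Klra16 at 1.15 to Klra22 at 1.98, and Klra2 and Klra3 were at 0.39 and 0.51. These genes are near copies of each other in 1 cluster, so probes may share signal and the 8 are not independent. Klrg1, an inhibitory receptor of mature NK and effector T cells, was at 1.24 and 1.24 against -1.19 and -1.06.
Of 12 chemokine receptors 5 were higher and 3 lower, and some of their ligands passed the rule with them. Cxcr6, a homing receptor of tissue T and NK cells, was at 2.07 and 2.04 with collagen against -0.62 and -0.56 with PMB, and its ligand Cxcl16 differed by 1.06. On the probe with the smaller difference between pairs Cxcl16 was at 0.75. Xcl1, a chemokine made by NK and T cells, was at 0.29 and 0.28 against -1.22 and -1.33. Cxcr3 was higher by 1.30, whereas its interferon-induced ligands Cxcl9 and Cxcl10 were at -0.39 and -0.41. Ccl24 and its receptor Ccr3, which attract eosinophils, were both lower with collagen, by -1.68 ± 0.037 and -1.04 ± 0.067. When probes with at least 1 value per coating were admitted, Ccr3 was at -0.68. For Cxcl12 the ligand was higher by 1.45 ± 0.21, and Ackr3, the atypical receptor that takes it up, was lower by -1.50 ± 0.0057. Ackr1, an atypical receptor of venules and red cells, was at -0.55 and -0.24 against 0.66 and 1.03.

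**Figure D4:**
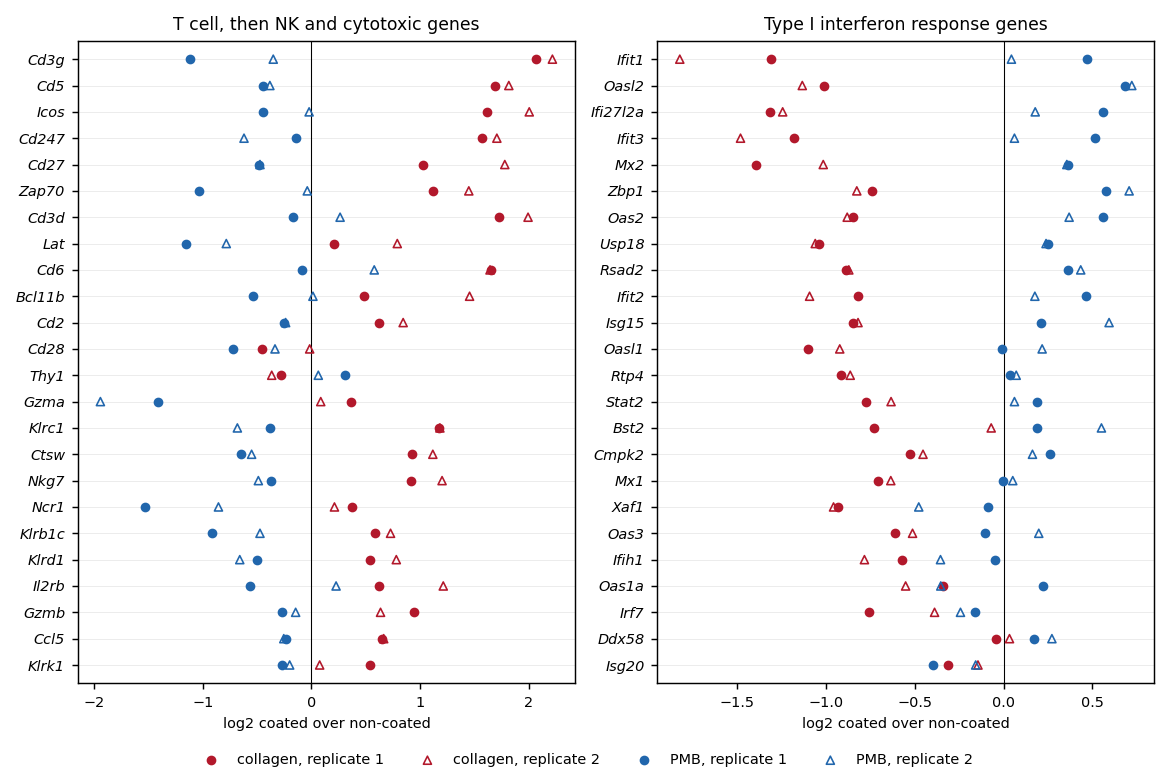
Log2 of coated over non-coated (x axis) on the 4 arrays for every measured T cell marker and, below them, every NK and cytotoxic gene (left), and for every measured type I interferon response gene (right); red is collagen, blue is PMB, circles are replicate 1 and triangles replicate 2. Red lies to the right of blue in most genes at the left, with Thy1 at -0.51 the exception in direction, and, by the means of both arrays, to the left of blue in 23 of 24 genes at the right.

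Genes of the IL-1 family, ligands and receptors together, were higher with collagen in 7 of 13 and lower in none, with a median of 1.02. The inflammatory cytokine Il1b was at 1.53 and 1.04 with collagen against -0.14 and -0.38 with PMB, and its 10 probes ran from 1.34 to 1.74. Il1a was at 1.25 and 1.19 against -0.08 and -0.10. Receptor genes on both sides of the pathway were included, with the decoy receptor Il1r2 at 1.54, the coreceptor Il1rap at 1.72 ± 0.16 and the IL-18 receptor Il18r1 at 1.98 ± 0.28. Il1f9, the IL-36 cytokine of epithelia, was higher by 1.93 ± 0.15. The alarmin Il33 at -0.73 and the antagonist Il1rn at 0.80 did not pass with the probes of a gene averaged. With the probe with the smallest difference between pairs 8 of the 13 family genes were higher, and with quantile normalization 6. In the TNF superfamily 6 of 26 were higher and 1 lower. Among them were the death ligand Fasl at 1.60 ± 0.085, the lymphoid cytokine Ltb at 1.27 ± 0.25 and Tnfsf14 at 1.58 ± 0.18.
In the RANK ligand system, through which osteoclasts form, the ligand and its soluble decoy differed in opposite directions. The ligand Tnfsf11 was at 1.79 and 1.74 with collagen against 0.15 and 0.09 with PMB. Its soluble decoy Tnfrsf11b was at -1.55 and -1.27 against -0.08 and -0.48, a difference of -1.13 ± 0.49 that was -0.78 on the arrays of replicate 2 alone. The receptor Tnfrsf11a was at -0.49. Of 12 genes of osteoclasts and giant cells 4 were higher, namely Mmp9, the tartrate-resistant phosphatase Acp5 at 2.16 ± 0.077, the carbonic anhydrase Car2 at 1.46 ± 0.037 and the receptor Oscar at 1.40 ± 0.19. The protease Ctsk at 0.34 and the fusion proteins Dcstamp and Ocstamp at 0.51 and 0.82 did not pass. Mmp9 is also a neutrophil gene.
The lists of macrophage genes differed from each other. None of 20 measured pan-macrophage markers was at least 2-fold different, with a median of 0.22, the mouse macrophage antigen Adgre1 at -0.33 and C1qa at 0.20. Of 21 genes of resident and alternatively activated macrophages 7 were lower with collagen and none higher, with a median of -0.91. After Retnla the members were Lyve1, the hyaluronan receptor of perivascular macrophages and lymphatic vessels, at -1.76 and -1.78 against 0.57 and 0.32, the galactose lectin Clec10a at -1.24 and -1.21 against 0.64 and 0.46, and F13a1, a crosslinking coagulation factor subunit, at -1.45 and -1.26 against 0.22 and 0.45. Collagen and PMB did not overlap in these genes. Retnla is also a product of fat tissue and Lyve1 of lymphatic vessels, and the part of these tissues was not tested. The anti-inflammatory cytokine Il10 was at -1.57 and -1.25 against 0.21 and 0.29, with 10 probes from -1.94 to -1.49. Arg1 at -0.83, Mrc1 at -0.28 and Chil3 at 0.40, which are widely used markers of the same state, did not reach 2-fold. Cd5l, a lipid-binding product of macrophages, was at -2.43 ± 0.15.
Of 13 genes of classically activated macrophages 3 were higher and none lower, with a median of 0.62. They were Il1b, Il1a and the prostaglandin synthase Ptgs2 at 1.16 ± 0.097, and Tnf at 0.88 and Il6 at 0.44 did not pass. MHC class II genes were higher in 3 of 10, with H2-Aa at 0.65 and 0.96 against -0.66 and -0.39. H2-Ab1 differed by 1.17 and fell below 2-fold, at 0.62, when the probe with the smaller difference between pairs was taken. No MHC class I or peptide loading gene passed in either direction among 11. No Toll-like receptor or adaptor passed among 20.

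Interferon response genes were lower with collagen than with PMB. Type I interferon induces them through the factor ISGF3, which binds the interferon-stimulated response element, a repeated GAAA core, in their promoters. Of 24 measured genes 12 passed 2-fold on the side of PMB and none on that of collagen, with a median difference of -1.03 and with 23 of 24 below 0. The promoter stretches of 4 of the lower genes are shown so that the element can be read, with matches to GAAA, any 2 bases and GAAA, or to its reverse complement TTTC, any 2 bases and TTTC, in capitals. They are RefSeq sequences of GRCm38.p6 on the strand of the gene, namely chr19:34640755-34640843 (plus strand) for Ifit1, chr19:34583343-34583446 (plus strand) for Ifit3, chr12:26456533-26456602 (minus strand) for Rsad2 and chr4:156200845-156200926 (minus strand) for Isg15.
Ifit1: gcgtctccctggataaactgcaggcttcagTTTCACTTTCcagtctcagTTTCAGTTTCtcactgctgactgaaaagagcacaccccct
Ifit3: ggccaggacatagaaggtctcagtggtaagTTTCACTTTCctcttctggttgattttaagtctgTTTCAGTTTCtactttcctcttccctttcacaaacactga
Rsad2: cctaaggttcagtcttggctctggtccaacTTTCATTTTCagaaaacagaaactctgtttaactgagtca
Isg15: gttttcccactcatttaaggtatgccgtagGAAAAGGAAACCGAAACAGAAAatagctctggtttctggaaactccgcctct
Ifit1, a protein that binds viral RNA caps, was at -1.31 and -1.82 with collagen against 0.47 and 0.04 with PMB. Ifit3 of the same family was at -1.18 and -1.48 against 0.52 and 0.06. Rsad2 (viperin), an antiviral radical enzyme, was at -0.89 and -0.87 against 0.36 and 0.43, and its probes ran from -1.94 to -0.61. Isg15, a ubiquitin-like modifier, was at -0.85 and -0.82 against 0.21 and 0.59. In all 4 genes collagen was below and PMB at or above the non-coated scaffold. Of the remaining members, Oasl2 had a difference of -1.78 ± 0.11, Mx2 of -1.57 ± 0.27 and Oas2 of -1.33 ± 0.11, while Irf7 at -0.37, Stat2 at -0.83, Mx1 at -0.70 and Bst2 at -0.77 did not pass.
Members of the list that passed the rule and members that did not held the motif in like shares. Over windows from 250 bases before to 50 bases after the start, on both strands and with overlapping matches joined, this motif of GAAA, any 2 bases and GAAA was found in 3.44% of 32851 promoter windows and in 3.81% of the measured genes with a window. It was found in 4 of 7 lower type I genes that had a window and in 6 of 10 that did not reach 2-fold. Among all genes lower with collagen 8.39% held it and among all higher genes 4.96%. A match describes letters in a window and is not a binding site.
The GTPases that interferon-gamma induces for defence inside cells were lower in 5 of 12 and higher in none, with a median of -0.72. Gbp3 was at -0.99 and -1.15 with collagen against 0.60 and 0.55 with PMB. Iigp1, whose probe carries another gene's name in the study's tables, was at -0.50 and -0.51 against 0.95 and 1.00, and Igtp at -0.50 and -0.29 against 0.70 and 1.13. These 3 GTPases were above the non-coated scaffold with PMB. Gbp5 and Gbp2 did not pass, with differences of 0.12 and -0.65. Ifitm1, a membrane protein that interferon also induces, was an exception at 1.82 and 2.00 against -0.39 and -0.29, higher with collagen by 2.25 ± 0.061.

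Epidermis genes, which build the keratinized barrier of skin, were higher in 7 of 11 and lower in 2, with a median of 1.11. Perp, the desmosome protein that the array annotation gives for the probe, was at 5.05 and 4.92 with collagen against 0.56 and 0.79 with PMB. That probe carries another gene's name in the study's tables. Serpinb5 (maspin) was at 1.45 and 1.85 against -1.93 and -0.91, and the cell adhesion gene Cdh1 at 1.67 and 1.44 against 0.43 and 0.30. Sfn differed by 1.40 ± 0.086 and Krtdap by 1.11 ± 0.0018. The coatings did not overlap in these genes. Ppl and Sbsn of the upper epidermis went the other way, by -1.16 ± 0.39 and -1.11 ± 0.037, and Krt10, a keratin of the same layers, was at 0.09. The basal keratins Krt5 and Krt14 had values on the collagen arrays only and entered no difference. Sbsn was at -0.64 on the probe with the smaller difference between pairs. With quantile normalization 4 of the 11 were higher and Krtdap was at 0.67. When genes with at least 1 value per coating were admitted, 12 of 16 were higher.
Stefins and epithelial defence genes had the highest list median, 1.93, with 8 of 11 higher and none lower. Stfa3, a cysteine protease inhibitor of the stefin A cluster that is abundant in neutrophils, was at 3.99 and 3.91 with collagen against 0.93 and 0.84 with PMB. Cstdc6 was at 3.22 and 2.83 against 0.25 and -0.12, and Stfa2 at 2.25 and 1.95 against 0.02 and 0.02. The protease inhibitor Slpi differed by 1.79 ± 0.12. Stefin genes are close copies that lie side by side, so their probes may share signal. Of 6 small proline-rich Sprr genes 4 were higher, with Sprr2e at 2.30 and 2.43 against -0.22 and 0.05. Neutrophil and epidermis genes were both higher with collagen, and the part of either in the values of this list, or in S100a8, S100a9 and Lcn2, which both cell types make, was not tested.

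Genes of mature muscle were lower and several genes of embryonic muscle higher with collagen than with PMB. Contractile genes switch from embryonic and cardiac forms to adult forms when fibres mature, and the embryonic forms return in regenerating fibres. Of 39 mature skeletal muscle genes 19 were lower and 1 higher with collagen. Their median was -2.75 and -2.70 on the collagen arrays and -1.70 and -1.64 on the PMB arrays, so both coatings lay below the non-coated scaffold. Myh2, an adult fast myosin, was at -4.02 and -4.03 against -1.31 and -1.19. The muscle cytochrome oxidase subunit Cox8b was at -3.64 and -3.35 against -1.05 and -0.81, and myoglobin (Mb) was at -2.75 and -2.56 against -0.47 and -0.80. The coatings did not overlap in these 3 genes. The deaminase relative Apobec2 (-2.46), the creatine kinases Ckmt2 (-2.24) and Ckm (-1.45), the Z-disc protein Myot (-2.17) and the slow troponin Tnnt1 (-1.74) also passed. The sarcomere genes Actn3 (-0.94), Myl1 (-0.95) and Acta1 (-0.61) did not. With quantile normalization 9 of the 39 were lower.
Of 17 embryonic and regenerating muscle genes 8 were higher and 3 lower, with a median of 0.55. Myh3, the embryonic myosin, was at -1.22 and -1.13 with collagen against -3.34 and -3.53 with PMB. Tnnt2, the troponin of heart and immature muscle, was at -0.43 and -0.52 against -3.19 and -3.18. Myog, the factor that drives myoblast differentiation, was at -0.66 and -0.41 against -1.96 and -2.07, with 10 probes from 1.33 to 1.66 in their difference. Myl4 (1.87 ± 0.11), Mybph (1.83 ± 0.30) and Actc1 (1.40 ± 0.18) passed in the same direction. In these genes the PMB scaffold was the lower of the coatings and both were below the non-coated one, the reverse of the order in Myh2. Dlk1, Sln and the perinatal myosin Myh8 were lower with collagen, by -1.60 ± 0.21, -1.34 ± 0.10 and -1.01 ± 0.17, and Sln stands on both lists. Myh8 fell to -0.24 with quantile normalization. Myod1 had no settled direction, at 0.86 and -1.16 with collagen and 1.32 and -1.52 with PMB, opposite in sign between the dye orientations.

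**Figure D5:**
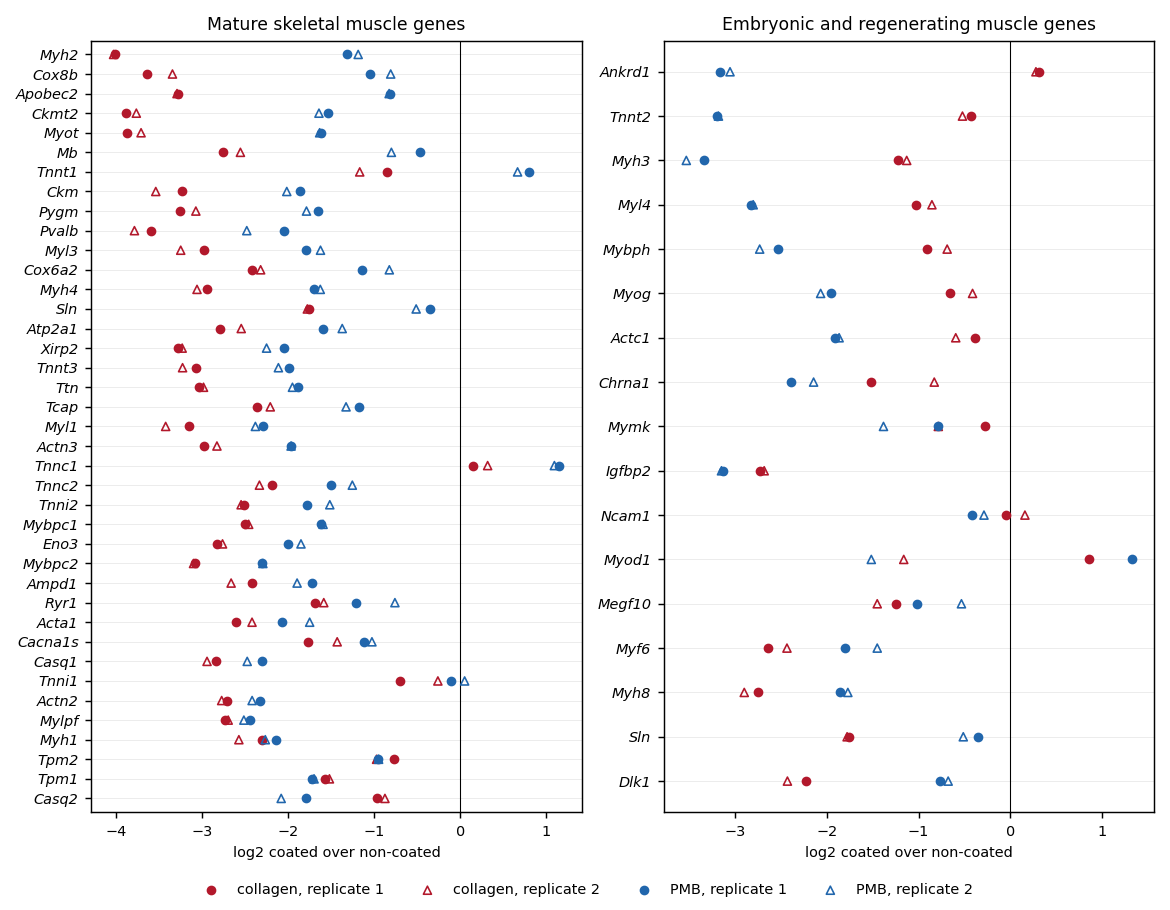
Log2 of coated over non-coated (x axis) on the 4 arrays for every measured mature muscle gene (left) and every measured embryonic or regenerating muscle gene (right); red is collagen, blue is PMB, circles are replicate 1 and triangles replicate 2. By the means of both arrays, red lies below blue in 36 of 39 genes at the left and above blue in 11 of 17 at the right, led by Ankrd1 at a difference of 3.40.

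Genes of fat cells were among those lower with collagen. Of 25 adipocyte genes 12 were lower and none higher, with a median of -0.93. Pck1, which supplies glycerol for fat storage, was at -0.94 and -1.11 with collagen against 1.73 and 1.82 with PMB. Thrsp, a regulator of fat synthesis, was at -1.71 and -1.37 against 0.85 and 1.12, and the insulin-dependent glucose transporter Slc2a4 at -1.72 and -1.60 against 0.14 and 0.24. The hormones Lep and Retn differed by -1.81 ± 0.26 and -1.88 ± 0.037. These values were below the non-coated scaffold with collagen and above it with PMB. The fat cell regulator Pparg (-0.84), Fabp4 (-0.85) and the enzymes Fasn (-0.21) and Dgat1 (0.91) did not pass. The 10 probes of Pparg ran from -1.11 to -0.58.
Of 11 Schwann cell and myelin genes 6 were lower and none higher, with a median of -1.05. Mbp, myelin basic protein, was at -2.55 and -2.59 against 0.63 and 0.57, and its 11 probes ran from -3.71 to -0.33. Sox10, the factor that maintains the glial lineage, was at -1.70 and -1.0 against 0.40 and 0.51. Ncmap and S100b, a myelin membrane protein and a glial calcium-binding protein, differed by -1.96 ± 0.062 and -1.91 ± 0.42. Ngfr, the low-affinity neurotrophin receptor, was at -1.39 and -0.90 against 0.33 and 0.70. The coatings did not overlap in Mbp, Sox10 and Ngfr, whereas Pmp22 at -0.82 and Mag at 0.50 stayed within 2-fold.
Fibroblast identity genes were lower in 6 of 18 and higher in none, with a median of -0.50. Pi16 and Dpp4, which mark the fascial fibroblasts of mouse skin, were at -0.62 and -0.31 against 1.28 and 1.63 and at -1.37 and -1.51 against 0.24 and 0.40. The secreted Wnt binder Sfrp4 was at -1.49 and -1.44 against 1.07 and 1.00. Pdgfra at 0.04, Prrx1 at -0.06 and Fap at 0.03 did not pass. The part of fat, nerve, muscle and fibroblast content of the cut areas in the lower genes was not tested.
Matrix genes divided by class. The main fibrillar collagens were close, with Col1a1 at -0.43 and Col3a1 at -0.15. The 12 probes of Col1a1 ran from -0.79 to 0.34. Only Col11a1 (1.62 ± 0.083) and Col5a3 (-1.0) of 10 passed the rule, the latter at -0.86 on the arrays of replicate 2 alone. Small leucine-rich proteoglycans, which space collagen fibrils, were lower in 3 of 10, with Omd at -1.37 and -1.87 against 0.31 and 0.07 and Lum at -0.90 and -1.0 against 1.11 and 0.30. Dcn and Bgn stood at -0.28 and 0.60. Matrix glycoproteins and elastic fibre genes were lower in 8 of 36 and higher in 3. Tnxb, a tenascin of loose connective tissue, was at -1.52 and -1.41 against 0.66 and 1.36, and Efemp1 and elastin (Eln) differed by -2.27 ± 0.49 and -1.12 ± 0.11. With quantile normalization Eln was at -0.95. The tendon-associated Thbs4 (-1.62 ± 0.17) and Cilp (-1.99 ± 0.055) were below the non-coated scaffold with either coating. Of 5 measured genes of the CCN family 3 were higher, Ccn1 by 1.05 ± 0.28, Ccn4 by 1.04 ± 0.17 and Ccn2, a target of TGF-beta and YAP signalling, by 1.21 ± 0.29. Ccn5 was lower, by -1.36 ± 0.26, and Ccn3 at -0.75 did not pass. On the arrays of replicate 1 alone Ccn1 and Ccn4 were at 0.86 and 0.91.
In basement membranes the laminin chains of epithelium and muscle differed in opposite directions. Lama3, the alpha chain of the epidermal laminin, was at 2.21 and 2.18 with collagen against 0.42 and 0.79 with PMB. Lama2, the alpha chain around muscle fibres and Schwann cells, was at -1.36 and -1.07 against 0.03 and 0.36, with 11 probes from -1.82 to -1.14. Nid2 was higher by 1.72 ± 0.057 and Col4a5 lower by -1.70 ± 0.086, and Col4a1 at 0.74, with its probes averaged, did not pass. Of 16 basement membrane collagens and laminins 2 were higher and 2 lower by the rule. With the median over probes, or with the probe with the smallest difference between pairs, 3 of the 16 were higher. Of 16 matrix metalloproteinases and their inhibitors 3 were higher, Mmp9, Mmp8 at 1.32 and Mmp10 at 1.93 ± 0.15, and none was lower. Mmp2 and Mmp14, the gelatinase A of fibroblasts and its activator, were at -0.21 and 0.24. The integrins showed 1 gene in each direction among 22. Itgae, the chain that holds T cells to epithelial cadherin, was at 0.15 and 0.61 against -1.36 and -1.29. Itgb8, a TGF-beta-activating chain, was at -1.37 and -1.50 against 1.11 and 1.14, while Itgb1 was at 0.00.

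In the signalling lists single ligands passed the rule while most members did not. Wnt2, a ligand of mesenchyme, was at -2.87 and -2.66 with collagen against 0.47 and 0.33 with PMB, and Wnt9a and Wnt11 were also lower, in 3 of 15 ligands and receptors. The secreted Wnt binders Sfrp1 and Sfrp4 differed in opposite directions, with Sfrp1 at 0.93 and 0.74 against -0.97 and -0.81. Bmp3, a ligand that opposes other bone morphogenetic proteins, was at -1.79 and -1.43 against 1.57 and 1.84, and the antagonist Chrdl1 was at -2.84 and -2.71 against 0.57 and 0.31. Bmp8a and Gdf10 were lower by -2.26 ± 0.093 and -1.73 ± 0.22, whereas Tgfb1 at -0.09 and Bmp4 at 0.10 were near 0. Fgf18 was at -2.19 and -2.39 against 0.22 and -0.23. With collagen Wnt2, Bmp3, Bmp8a, Gdf10 and Fgf18 were all below the non-coated scaffold.
Axon guidance genes, which also act in vessels and leukocytes, were higher in 5 and lower in 5 of 41. The class 3 semaphorins Sema3e and Sema3c were lower, at -2.32 and -2.13 against 0.89 and 0.78 and at -1.68 and -1.42 against 0.56 and 0.73. The netrin receptors Unc5b and Unc5c were higher by 1.98 ± 0.35 and 1.40 ± 0.18, and Slit2 by 1.19 ± 0.048. Of the 5 higher genes 3 were at least 2-fold higher in each dye orientation.
Most vessel genes stayed within 2-fold. Blood endothelial markers were higher in 2 of 26, Plvap at 1.07 ± 0.013 and Esm1 at 1.07 ± 0.078. This share was 7.69%, against 2.74% of all genes, and 23 of 26 were above 0 with a median of 0.50. With quantile normalization neither Plvap nor Esm1 passed, at 0.92 and 0.98. Cdh5 at 0.70, Pecam1 at 0.59 and Kdr at 0.30 did not pass. Of 4 lymphatic markers Reln and Lyve1 were lower, and Pdpn and Nrp2 were at 0.32 and 0.43. The growth factors split, with Vegfa at -0.54 and -0.54 against 0.68 and 0.63 and the lymphatic growth factor Vegfc at 0.63 and 0.92 against -0.54 and -0.36. These are the probes that the array annotation gives for both genes, and the values under these names in the study's tables belong to other probes. The 12 probes of Vegfa ran from -1.80 to -0.67. Of 16 smooth muscle and pericyte genes only Cnn1 passed, at 2.01 ± 0.55, and Acta2 was at 0.93.
Genes of the hypoxia response, to which Vegfa also belongs, were lower with collagen in 6 of 24 and higher in none, with a median of -0.65 and 23 of 24 below 0. Ndrg1 was at -1.0 and -0.97 against 0.80 and 0.85, the mitophagy receptor Bnip3 at -1.31 and -0.96 against 0.37 and 0.43, and Ankrd37 at -1.53 and -1.34 against 0.09 and 0.63. Collagen was below and PMB above the non-coated scaffold in these genes. The glycolytic genes Ldha (-0.40) and Pgk1 (-0.61), the glucose transporter Slc2a1 (-0.72) and Car9 (-0.90) did not pass.
Cell cycle genes were higher with collagen in 5 of 37 and lower in none, with 36 of 37 above 0 and a median of 0.70. Top2a, the topoisomerase of dividing cells, was at 0.70 and 0.39 against -0.69 and -0.60. The checkpoint kinase Bub1b was at 0.87 and 1.03 against -0.45 and -0.15 and the mitotic kinase Cdk1 at 0.32 and 0.44 against -0.88 and -0.65. Mki67 and Pcna, common proliferation markers, were at 0.35 and 0.08, and 2 of the 5 genes were at least 2-fold higher in each dye orientation.

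Metabolic enzymes were among the lowest single genes. Of 34 cytochrome P450 and xenobiotic enzymes 9 were lower and 2 higher, with a median of -0.46. Akr1c18, which inactivates progesterone, was at -3.23 and -3.09 with collagen against 0.50 and 0.65 with PMB. Ces1d, a carboxylesterase that acts on fat cell lipid, was at -2.06 and -2.0 against 1.20 and 1.10. Among the 9 lower genes were also the retinaldehyde dehydrogenases Aldh1a1 at -2.04 ± 0.34, Aldh1a3 at -1.45 and Aldh1a2 at -1.05, and the retinoic acid hydroxylase Cyp26b1 at -1.29. Aldh1a2 was at -0.94 on the arrays of replicate 2 alone and Aldh1a3 at -0.75 on the probe with the smaller difference between pairs. Cyp7b1, an oxysterol hydroxylase, was at 1.79 and 1.81 against 0.24 and 0.22 and thus higher with collagen, as was Cyp1b1.
Arginine metabolism showed the arginase isoforms apart. Arg2, the mitochondrial form, was at 1.97 and 2.23 against -0.43 and -0.09, and Arg1, the cytosolic form, at -0.77 and -0.85 against 0.17 and -0.13, a difference of -0.83 ± 0.16 that did not pass. Ass1, which regenerates arginine, was higher by 1.57 ± 0.19. The carbonic anhydrases likewise split, with Car4 at 2.95 and 2.86 against 0.47 and 0.79 and Car2 higher, and with the catalytically inactive Car8 at -0.50 and -0.29 against 2.62 and 2.22 and the muscle and fat form Car3 at -1.57 and -1.48 against 0.32 and 0.51. In prostaglandin metabolism Ptgs2 (0.99 with quantile normalization) and the degrading Hpgd (1.36 ± 0.12) were higher, and the prostacyclin synthase Ptgis (-1.51 ± 0.049) and the receptor Ptger3 (-1.81 ± 0.16) lower. No gene of cholesterol synthesis passed among 18, and 3 of 51 subunits of the respiratory chain did, with a median of 0.32. Of these subunits 0 passed on the arrays of replicate 1 alone and 0 when 2-fold was required in each dye orientation.
With the probes of a gene averaged, none of 13 housekeeping genes differed 2-fold, from Gapdh at -0.82 to Rplp0 at 0.92, with a median of 0.23. With the median over probes 1 of 13, Rplp0, was higher, and its 12 probes ran from 0.37 to 1.28. The ribosomal protein genes had a median of 0.30. Of 6 mast cell markers Cpa3 was lower with collagen, at -1.03 ± 0.27 and at -0.84 on the arrays of replicate 1 alone, and Mcpt4 at -0.96, Kit at 0.74 and Hdc at 0.87 did not pass.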

How the data were processed

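Tissue RNA at collagen-coated and PMB-coated scaffolds was measured against the non-coated scaffold on 4 two-colour whole mouse genome arrays. Spots were quantified with GenePix and normalized by LOWESS by the authors, who deposited the log2 ratio of red over green signal (Cy5 over Cy3). Their way of combining scans of different gain, and their reason for leaving a spot empty, are not given in the sources used here. As deposited, replicates 1 and 2 correlated at -0.79 with collagen and at -0.66 with PMB, so the sign of replicate 2 was turned for both coatings. No further normalization was applied. Gene symbols came from the platform annotation (33651 probes with 1 symbol, 56 with several, 9670 without), and some probes carry other names in the study's tables. Probes of a gene that had all 4 values were averaged.
Paired differences, counts and list medians were computed with Python 3.11.15, pandas 2.3.3 and numpy 2.4.6, with figures in matplotlib 3.10.9 and with R 4.3.3 and limma 3.58.1 for the scaled and quantile-normalized alternatives. The precision is limited by 1 mouse per scaffold. The number of arrays, not counting depth, sets the technical error. Named were the 30 genes of largest difference in each direction, up to 8 members of a list past 2-fold and up to 4 that were not, opposite members of a family and the genes with printed promoters. Cd5l, Trgv2 and other genes outside this rule were picked with their values in view. The lists and all named genes were chosen with earlier results of these data known. Alternatives were other normalizations, thresholds, missing-value and probe rules and each replicate alone. On simulated data of 11842 genes, 96.0% of differences of 1.2 and 100% of 1.5 or 2.5 in log2 passed the rule, as did 3 of 11642 unchanged genes. The simulated error was taken from the SD of the 2 subtractions of each gene. These shares therefore describe technical error only and hold nothing of the variation between animals or cut areas.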

Additional observations from a re-analysis of the deposited data

Results flagged for a closer look

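Probes with values on both arrays of one coating and on neither array of the other were outside the comparison. There were 56 such probes for collagen and 63 for PMB, and 10 and 9 of them were at least 2-fold above the non-coated scaffold. The values here are log2 of coated over non-coated, and a missing value gives no level for the other coating. No group had enough samples for a search for outlying samples.
With values on the collagen arrays only, genes of stratified epithelium had the highest ratios. The antimicrobial beta-defensin Defb14 was at 4.29 and the desmosome protein Pkp1 at 3.71. The keratins of basal and wound-edge epidermis were Krt14 at 3.56, Krt5 at 3.49 and Krt6a at 3.47, and Krt13 was at 2.88. The cornified envelope genes Sprr2d, Sprr1a and Sprr2a1 were at 3.37, 3.21 and 3.06, and Tceal3 at 1.43. Another probe of Sprr2a1 had a value on all 4 arrays, where the coatings differed by -0.11.
With values on the PMB arrays only, Myh7, the myosin of slow fibres and heart, had the highest ratio at 4.48. It was above the non-coated scaffold, unlike the median of mature muscle genes with PMB. The ligand Bmp7 was at 1.72 and 1.65 on separate probes and the Wnt and BMP antagonist Sostdc1 at 1.48. The remaining named genes were 4930404H11Rik at 1.69, Cmtm5 at 1.40, the bile acid receptor Nr1h4 at 1.28 and the myelin gene Mal at 1.01.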

How the results depend on the processing

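The counts of 325 higher and 435 lower genes and of 679 higher and 804 lower probes stayed within 1.5 times under every alternative except a 3-fold threshold, which left 93 and 146 genes and 160 and 260 probes. With the arrays of 1 replicate alone, 330 to 374 genes were higher and 467 to 478 lower, and 721 to 789 probes were higher and 853 to 913 lower. Without the replicate block, that is without pairing the arrays by dye orientation, 325 genes were higher and 434 lower. The mean difference is the same without the pairing, so this alternative could not change a direction. Scaling the arrays to one spread gave 404 and 518 genes, quantile normalization 335 and 395, and a 2-fold difference required in each dye orientation 262 and 357. Of the original higher and lower genes, 289 and 357 were also called with quantile normalization. None of the 26 lists with a median of at least 0.5 in size changed sign under any of these alternatives, and 14 of the 44 lists with a smaller median did. Of 292 named genes followed, 67 fell below 2-fold under at least 1 alternative and 0 changed sign. All of them had passed the rule, so neither replicate alone could change their sign. Other named genes, among them those that did not pass, were not followed. No alternative adds animals, and the counts hold for these 4 arrays only.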

Other observations

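In several further groups most members stayed within 2-fold. Over all genes 3.67% were lower and 2.74% higher with collagen. The lower share was 17.6% of complement, 13.3% of clock, 7.41% of immediate-early and 3.85% of heat shock and unfolded protein genes. Of 27 immediate-early genes Klf4 and Fosb were lower with collagen than with PMB, by -1.29 ± 0.026 and -1.23 ± 0.051, and Fos was at -0.67. Fosb was at -0.90 with quantile normalization. Of 15 circadian clock genes, which follow the time of day of tissue sampling as well as tissue state, Per2 was at -0.58 and -0.30 on the collagen arrays and at 0.50 and 0.81 on the PMB arrays, and Cry2 at -0.64 and -0.53 against 0.42 and 0.53. The median of the clock genes was -0.37 with 13 of 15 below 0. Of 26 heat shock and unfolded protein genes the inducible chaperone Hspa1a was lower, at -1.07 and -0.75 against 0.85 and 1.04. Of 17 complement genes C4b, Cd55 and C2 were lower and Cfi higher (5.88%). With the probe with the smallest difference between pairs 1 of the 17 was lower and 1 higher.
Neighbouring genes were sometimes past the rule together. Along the chromosomes there were 5 runs of at least 3 consecutive measured genes past 2-fold, all higher with collagen. They were Chil1, Mybph and Myog on chromosome 1, Ckap2l, Il1a and Il1b on chromosome 2, the 6 receptor genes from Klrc1 to Klra10 on chromosome 6, Cd3g, Cd3d and Jaml on chromosome 9, and Cstdc6, Stfa2 and Stfa3 on chromosome 16. The Klra and the stefin genes are close copies whose probes may share signal. Whether the number of runs exceeds that of a shuffled gene order was not tested.
Of 3376 probes without a gene symbol that had 4 values, 112 were higher and 132 lower with collagen by the same rule, and their differences ran from -4.21 to 2.75.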
